A study of Arabidopsis thaliana with 4 samples.

Results

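Expansins, xyloglucan endotransglucosylase/hydrolases (XTHs) and family 9 endoglucanases (GH9) are the 3 gene families described here, in Arabidopsis seedlings that overexpress RECA1 and in wild-type seedlings. Members were the probe sets that the platform annotation pairs with a single gene whose symbol starts with EXP, ATEXP, EXL, XTH, XTR or GH9. This gave 42 genes among the 13350 genes named in that way, each with 1 probe set, out of 22746 probe sets on the array. They were 18 expansin and expansin-like genes, 9 XTH genes and 15 GH9 genes, and all 42 matched a locus of the TAIR10.1 assembly. Other genes of these families have no probe set paired with them alone in that annotation and are not analysed here.

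The study measured RNA from whole seedlings 2 weeks old on 4 Affymetrix arrays. The RECA1-OE group was 2 samples of transgenic plants of the T3 generation that overexpress RECA1 (AT1G79050), a chloroplast-targeted homologue of the bacterial recombinase RecA, in the Col-0 ecotype. The Col-0 group was 2 samples of untransformed wild type of that ecotype. Neither group was treated. After 4 days of seed stratification, both grew on plates at 23 °C in days of 16 h light and 8 h dark. The labels give neither the promoter of the transgene nor the number of independent lines. The annotation pairs no probe set with RECA1, so its overexpression is taken from the labels and was not measured here. They number the samples of each group as biological replicates, and do not state that these came from separate plates or days.

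Plant cells enlarge when the cellulose network of the primary wall yields to turgor. Alpha-expansins (EXPA) and beta-expansins (EXPB) loosen that network at acid pH without cutting it, and the expansin-like proteins (EXLA, EXLB) resemble them in sequence without an established loosening activity. XTH enzymes cut xyloglucan, the main polysaccharide coating cellulose in these walls, and most of them rejoin the cut end to another xyloglucan chain. GH9 enzymes act on glucan chains: GH9A proteins are anchored in membranes, GH9B proteins are secreted, and GH9C proteins carry an extra carbohydrate-binding module.

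Values are log2 MAS5 signals, so a step of 1 is a doubling of the signal. Signals of different probe sets are not on a common scale and are compared between groups only. RECA1-OE was compared with Col-0 by limma over all 22746 probe sets, and a gene was called at an adjusted p under 0.05. Errors of group means are SD over 2 arrays, and errors of differences are limma's moderated SE. Signal was low for many members: 23 of the 42 had a mean log2 signal under 6.82 over the 4 arrays, which is the lowest 40% of all probe sets, and these are called dim. EXPA7 at 6.80 and EXLA2 at 6.78 were the dim members nearest that limit, and XTH20 at 7.10 was the nearest above it. The median log2 signal of an array lay between 7.58 and 7.63. Across the probe sets that were not dim Pearson's r was 0.980 between the RECA1-OE arrays and 0.966 between the Col-0 arrays. Between groups, Col-0 replicate 1 gave 0.918 and 0.924 with the RECA1-OE arrays, and Col-0 replicate 2 gave 0.882 and 0.884.

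Of the 42 genes, 6 were lower in RECA1-OE, 1 was higher and 35 were not called. That is 14.3% lower and 2.38% higher, where 3.31% of all probe sets were called lower and 4.55% higher. The 6 lower ones were the alpha-expansin genes EXPA4, EXPA8 and EXPA15, the beta-expansin gene EXPB3 and the endoglucanase genes GH9B13 and GH9C2, and the higher one was XTH18. In RNA of whole seedlings fewer cells of a type and less RNA per cell cannot be told apart. The median log2 difference of the 42 genes was -0.29, with a range of -2.95 to 1.70, beside a median of -0.04 over all probe sets. Both RECA1-OE arrays lay below both Col-0 arrays in 18 genes and above them in 9, and the groups overlapped in 15, where 30.4% of all probe sets were below and 25.5% above. All 7 calls were in genes that were not dim. Over all probe sets, 934 of the 1035 higher calls and 711 of the 752 lower calls were likewise in probe sets that were not dim. At an unadjusted p under 0.05, 12 of the 42 genes were lower and 3 higher, where 13.3% and 11.7% of all probe sets were. None of the 23 dim genes was called by limma, and 1 of them, EXLA2, had an unadjusted p under 0.05.

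**Figure D1:**
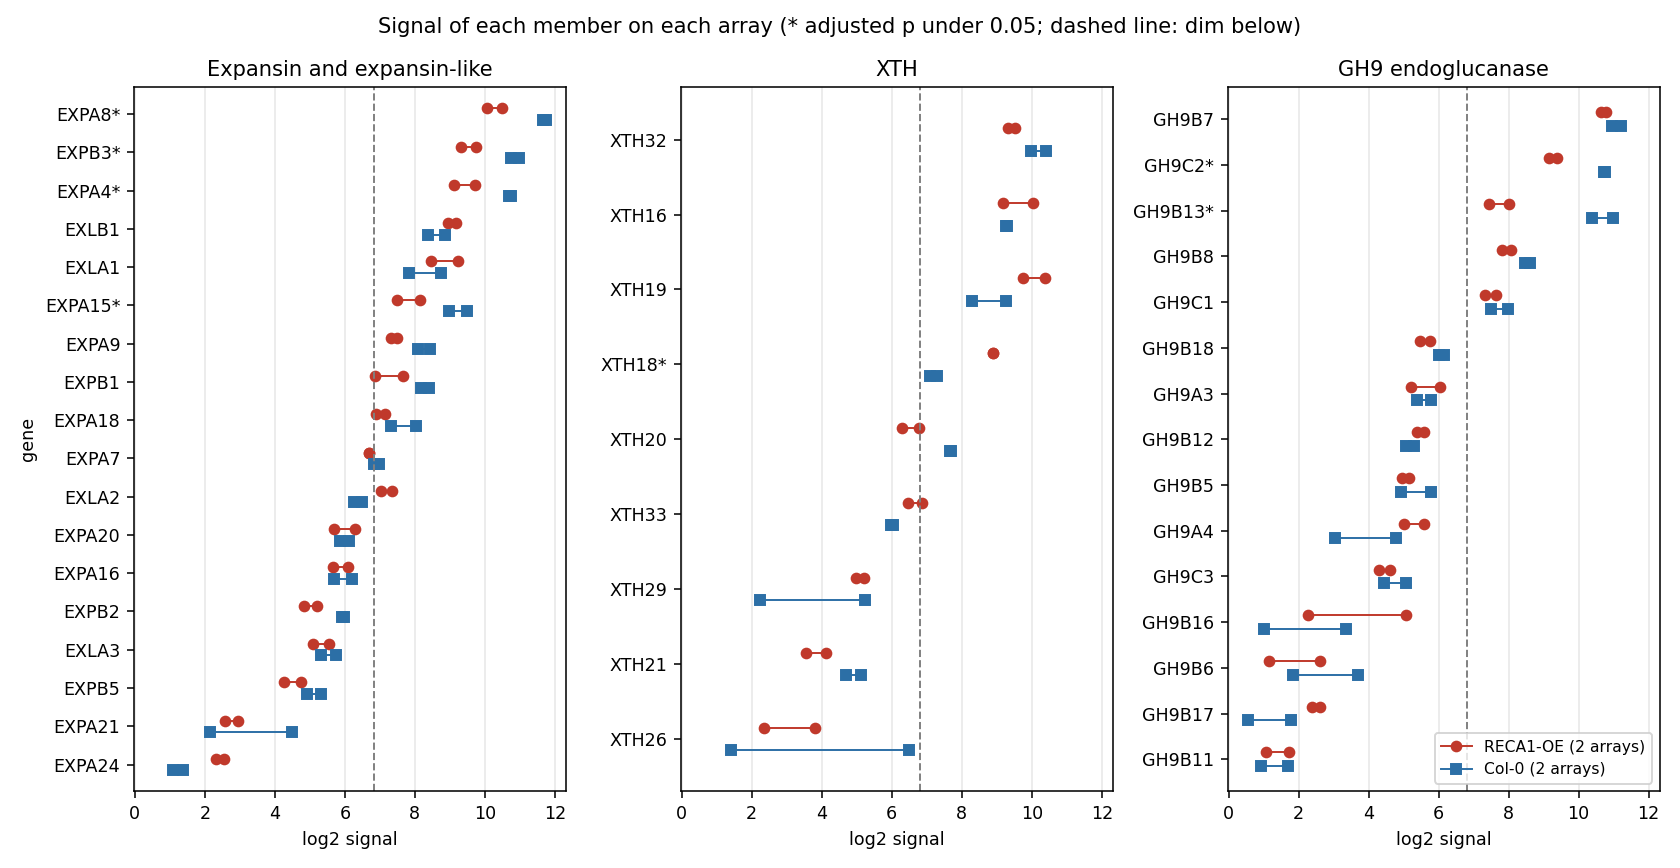
Log2 signal (horizontal axis) of the 42 genes, in a panel for each family, with the 2 RECA1-OE arrays as red circles above the 2 Col-0 arrays as blue squares, and each pair joined by a line. Asterisks mark the 7 called genes, the dashed line is the limit of 6.82 below which genes are called dim, and the brighter alpha- and beta-expansin genes have both red circles left of both blue squares.

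Of the 18 expansin and expansin-like genes, 4 were called lower and 0 higher, with a median log2 difference of -0.59. All 4 were alpha- or beta-expansin genes, the group with the most calls by number. By share the families were closer: among genes that were not dim, 4 of 9 expansin and expansin-like genes and 2 of 5 GH9 genes were lower. The alpha- and beta-expansin genes are read apart from the expansin-like genes by name, a split made with earlier results of these data known. EXPA8 had log2 signals of 10.48 and 10.05 on the RECA1-OE arrays, against 11.65 and 11.75 on the Col-0 arrays. Its groups were 1.17 apart at their nearest, where the larger gap between replicates was 0.43. EXPA8 fell 2.71-fold, a log2 difference of -1.44 ± 0.17 with a limma adjusted p of 0.013. EXPA4 had 9.71 and 9.13 in RECA1-OE, against 10.70 and 10.74 in Col-0, and fell 2.45-fold (limma adjusted p 0.023). Without Col-0 replicate 2 its call was lost, at a log2 difference of -1.27. EXPA15 had 8.16 and 7.49 in RECA1-OE, against 8.98 and 9.49 in Col-0, and fell 2.66-fold (limma adjusted p 0.041). Without the same array its call was lost, at a log2 difference of -1.16, and calls over all probe sets fell there too. In EXPA15 the nearest arrays of the groups were 0.82 apart and the RECA1-OE replicates 0.67, so its margin was the narrowest of the called expansins. EXPB3, a beta-expansin gene, had 9.74 and 9.33 in RECA1-OE, against 10.97 and 10.76 in Col-0. It fell 2.51-fold, a log2 difference of -1.33 ± 0.17 (limma adjusted p 0.016). The 4 falls lay between 2.45-fold and 2.71-fold, and the 95% intervals of these differences ran from -2.10 to -0.72 over the 4 genes.

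Beyond the called genes, 2 further expansins and a root hair expansin had both RECA1-OE arrays below Col-0 at signals that were not dim. EXPA9 had 7.49 and 7.32 in RECA1-OE, against 8.09 and 8.43 in Col-0, with a log2 difference of -0.86 ± 0.21 and a limma adjusted p of 0.064. EXPB1 had 7.66 and 6.85 in RECA1-OE, against 8.41 and 8.17 in Col-0. Its log2 difference was -1.03 ± 0.30, with a limma adjusted p of 0.100 (unadjusted 0.015). Neither was called here, and with the dim 40% of probe sets left out before the fit both were, with limma adjusted p values of 0.026 and 0.041. EXPA18, which acts in root hair growth and is described here although the naming rule did not select it, had 6.90 and 7.14 in RECA1-OE, against 8.03 and 7.33 in Col-0. Its difference of -0.66 ± 0.30 did not pass, and its Col-0 arrays were 0.71 apart. The other root hair expansin, EXPA7, also outside the naming rule, was dim and differed by -0.21, with a 95% interval of -0.83 to 0.42.

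Over the 14 alpha- and beta-expansin genes, 4 fell, 0 rose and 10 were not called by limma, where 3.31% of all probe sets were called lower. At an unadjusted p under 0.05 the counts were 6 lower and 0 higher, where 13.3% of all probe sets were lower. Their median log2 difference was -0.76, and in 10 of the 14 both RECA1-OE arrays lay below both Col-0 arrays, with 1 the other way, beside 30.4% and 25.5% of all probe sets. The 7 dim genes of this group, EXPA7, EXPA16, EXPA20, EXPA21, EXPA24, EXPB2 and EXPB5, had log2 differences from -0.93 to 1.21. EXPB2 was the lowest of them, with 5.21 and 4.83 in RECA1-OE and 5.92 and 5.98 in Col-0, and EXPA24 the highest, with 2.56 and 2.33 in RECA1-OE and 1.37 and 1.10 in Col-0. At signals this low an SE of 0.40 for EXPB2 and 0.87 for EXPA24 left both uncalled.

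No expansin-like gene was called, where 4.55% of all probe sets were called higher and 3.31% lower. Of the 4 genes, 3 had a higher mean in RECA1-OE, and their median log2 difference was 0.51. At an unadjusted p under 0.05 limma gave 1 higher and 0 lower, where 11.7% of all probe sets were higher and 13.3% lower. EXLA2 had 7.02 and 7.36 in RECA1-OE, against 6.49 and 6.26 in Col-0, so its groups did not overlap, and its difference of 0.82 ± 0.28 had a limma adjusted p of 0.140. EXLB1 had 8.95 and 9.18 in RECA1-OE, against 8.85 and 8.37 in Col-0, a difference of 0.45 ± 0.20 that did not pass, with groups only 0.10 apart. EXLA1 and EXLA3 lie next to each other in the genome, and neither was picked by the naming rule. EXLA1 had 8.46 and 9.22 in RECA1-OE, against 7.82 and 8.74 in Col-0, and EXLA3 had 5.55 and 5.08 in RECA1-OE, against 5.33 and 5.76 in Col-0. The groups overlapped in both genes. Whether the expansin-like genes differ from the other expansins in their response was not tested.

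**Figure D2:**
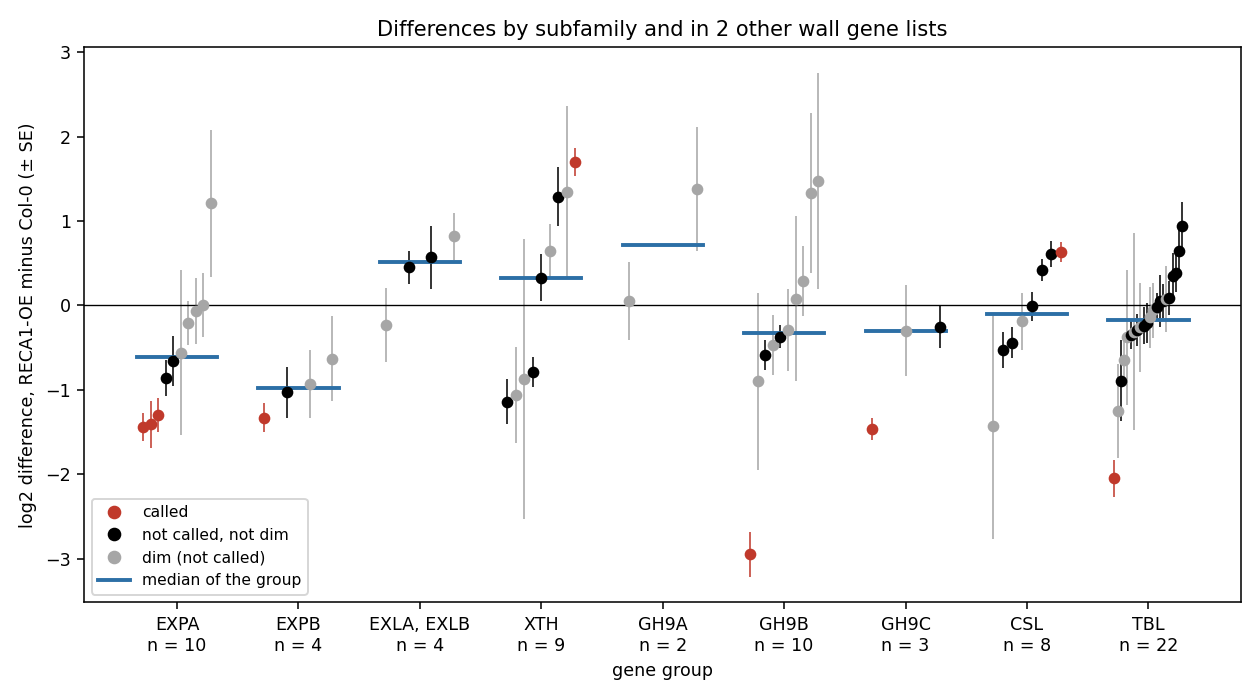
Log2 difference of RECA1-OE minus Col-0 with its SE for each gene (vertical axis), by subfamily and in the CSL and TBL lists, with called genes in red, uncalled genes in black, dim genes in grey and a blue bar at each group's median. EXPA and EXPB genes have medians of -0.61 and -0.98, the expansin-like genes one of 0.51, and XTH genes lie on both sides of 0.

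XTH genes had differences on both sides of 0. Of the 9, 1 rose, 0 fell and 8 were not called, and at an unadjusted p under 0.05 limma gave 2 higher and 2 lower. Over all probe sets 4.55% were called higher, and 11.7% were higher and 13.3% lower at an unadjusted p under 0.05. XTH18, which with XTH19 and XTH20 belongs to a set known for expression in roots, had 8.88 and 8.90 in RECA1-OE, against 7.29 and 7.09 in Col-0. The replicates differed by 0.03 and 0.19 and the groups by at least 1.59. XTH18 rose 3.25-fold, by 1.70 ± 0.17 on the log2 scale, with a limma adjusted p of 0.0093 and a 95% interval of 1.27 to 2.12.

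XTH19 lies next to XTH18 in the genome with no gene between them. It had 9.74 and 10.39 in RECA1-OE, against 9.25 and 8.30 in Col-0, so the groups did not overlap. Its Col-0 arrays were 0.95 apart, and the difference of 1.29 ± 0.35 had a limma adjusted p of 0.086. Without Col-0 replicate 1 the difference was 1.77 and was called, and without Col-0 replicate 2 it was 0.82 and was not. XTH20, the other measured member of the root set, lay the other way, with 6.78 and 6.28 in RECA1-OE, against 7.68 and 7.66 in Col-0. Its difference of -1.14 ± 0.27 had a limma adjusted p of 0.060, and its RECA1-OE mean of 6.53 lay below the dim limit.

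XTH32, of the group of XTH proteins predicted to cut xyloglucan without rejoining it, had 9.31 and 9.52 in RECA1-OE, against 9.97 and 10.42 in Col-0. The difference of -0.79 ± 0.18 just missed the threshold, with a limma adjusted p of 0.059. With the dim 40% left out XTH19, XTH20 and XTH32 were all called, with limma adjusted p values of 0.034, 0.020 and 0.029. XTH16 had 9.19 and 10.04 in RECA1-OE, on both sides of the 9.27 and 9.30 in Col-0, and its difference of 0.33 ± 0.28 did not pass.

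The other 4 XTH genes were dim, none was called, and all are named outside the naming rule. XTH33, a plasma membrane XTH, had 6.46 and 6.87 in RECA1-OE, against 5.99 and 6.04 in Col-0, a difference of 0.65 ± 0.32. XTH21 had 4.13 and 3.54 in RECA1-OE, against 4.68 and 5.11 in Col-0. The groups did not overlap in either gene. In XTH26 and XTH29 the Col-0 arrays were far apart: XTH26 had 3.80 and 2.35 in RECA1-OE, against 6.49 and 1.40 in Col-0, and XTH29 had 5.20 and 4.98 in RECA1-OE, against 5.24 and 2.25 in Col-0. Their SE of 1.66 and 1.01 were the widest of the family.

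GH9 genes gave the largest difference of the 42. GH9B13, a secreted endoglucanase, had 8.01 and 7.45 in RECA1-OE, against 10.39 and 10.97 in Col-0. The nearest arrays of the groups were 2.38 apart and the replicates 0.56 and 0.58. GH9B13 fell 7.72-fold, a log2 difference of -2.95 ± 0.27, with a limma adjusted p of 0.0084, and the 95% interval put the fall at 4.92-fold or more. GH9C2, an endoglucanase with a carbohydrate-binding module, had 9.38 and 9.14 in RECA1-OE, against 10.71 and 10.76 in Col-0. It fell 2.78-fold, a log2 difference of -1.47 ± 0.13 (limma adjusted p 0.0084), with replicates no more than 0.23 apart.

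Of the 15 GH9 genes, 2 fell, 0 rose and 13 were not called. At an unadjusted p under 0.05 limma gave 4 lower and 0 higher, where 3.31% of all probe sets were called lower and 13.3% were lower at that p. The family's median log2 difference was -0.29. GH9B8 had 8.07 and 7.82 in RECA1-OE, against 8.61 and 8.47 in Col-0, and GH9B7 had 10.64 and 10.77 in RECA1-OE, against 11.21 and 10.94 in Col-0. Both lay below Col-0 on each array, by -0.59 ± 0.18 and -0.37 ± 0.14, and neither was called, with limma adjusted p values of 0.101 and 0.183. GH9C1, outside the naming rule, had 7.64 and 7.32 in RECA1-OE, overlapping the 7.98 and 7.49 in Col-0.

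The remaining 10 GH9 genes were dim and uncalled, with log2 differences from -0.90 to 1.48 and SE from 0.36 to 1.28. GH9A4, of the membrane-anchored class, had 5.01 and 5.58 in RECA1-OE, against 4.79 and 3.03 in Col-0. Its groups did not overlap, but the Col-0 arrays were 1.77 apart and the difference of 1.38 ± 0.73 had a limma adjusted p of 0.310. Without Col-0 replicate 1 that difference was 2.27, and without Col-0 replicate 2 it was 0.50. GH9B16, GH9B17 and GH9B18 stand in a row in the genome and GH9B11 is next to GH9B12, and these genes were looked at for that order after the naming rule had left them out. In the row of 3, GH9B16 and GH9B17 had differences of 1.48 ± 1.28 and 1.33 ± 0.95, and GH9B18 one of -0.47 ± 0.36. GH9B11 and GH9B12 differed by 0.08 ± 0.98 and 0.29 ± 0.42. None of these neighbours gave a difference of more than 1.5 times its SE.

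**Figure D3:**
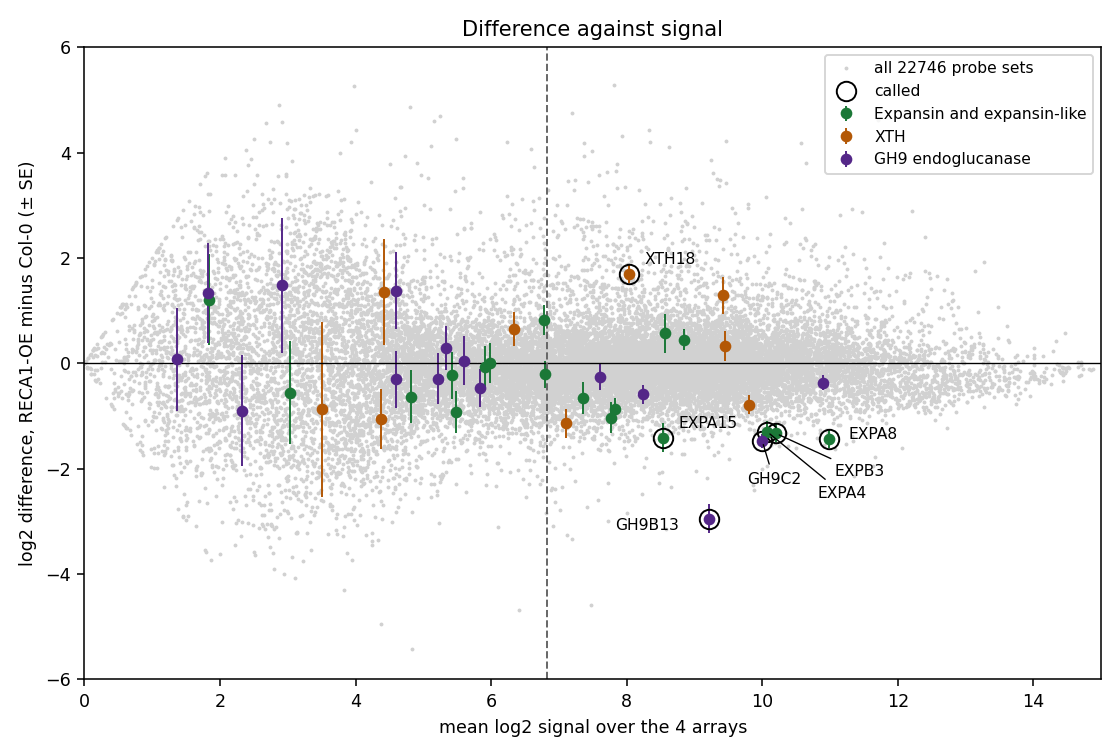
Log2 difference of RECA1-OE minus Col-0 with its SE (vertical axis) against the mean log2 signal over the 4 arrays (horizontal axis), with all 22746 probe sets in grey, the 42 genes in colour by family and the 7 called genes ringed. The SE of the genes left of the dashed dim limit reach 1.66, and all 7 called genes lie to its right.

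How many of the genes are called depended on whether dim probe sets stayed in the fit. Of the 19 genes that were not dim, 10 were called lower and 2 higher when the fit was made without the dim 40%, where 9.97% of all tested probe sets were lower and 9.94% higher. The 7 genes called over all probe sets stayed called there, and the 5 added were EXPA9, EXPB1, XTH19, XTH20 and XTH32.

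A fit without an array leaves 1 array in its group, so the spread comes from the other group's pair alone. Without RECA1-OE replicate 1, and likewise without RECA1-OE replicate 2, limma called no probe set at all, and so none of the 42 genes. As no probe set passed there, the lack of calls says nothing about single genes. Without Col-0 replicate 2 EXPA4 and EXPA15 lost their calls, at log2 differences of -1.27 and -1.16. Calls over all probe sets fell there too, so that loss was not confined to these genes. Without Col-0 replicate 1 XTH19 and XTH32 were gained, at 1.77 and -1.01. With each array left out in turn, the log2 difference of the uncalled GH9A4 ranged from 0.50 to 2.27. That of XTH19, uncalled with all arrays, ranged from 0.82 to 1.77. The fall of GH9B13 lay between 6.32-fold and 9.45-fold and the rise of XTH18 between 3.03-fold and 3.48-fold with each array left out in turn. The 4 called expansin genes were between 2.01-fold and 3.36-fold lower. A call favours genes with small gaps between replicates, so the ranges of called genes are not separate evidence of stability.

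**Figure D4:**
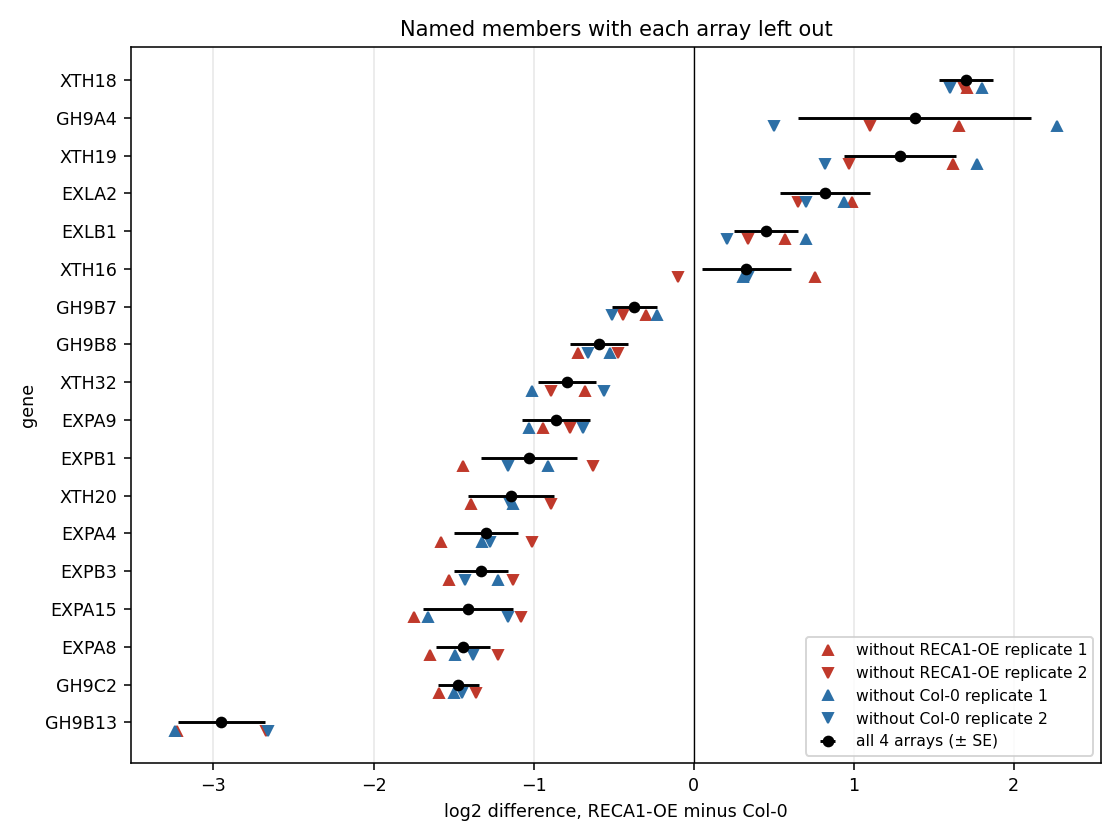
Log2 difference of RECA1-OE minus Col-0 (horizontal axis) of the 18 genes taken by the naming rule, as black points with SE for all 4 arrays and as triangles with 1 array left out (red for a RECA1-OE array, blue for a Col-0 array). The triangles of the 7 called genes could not cross 0, since the groups do not overlap in these genes. In XTH16, where the groups overlap, 1 triangle crosses it.

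Some probe sets of these families fell outside the 42 genes. EXGT-A3 (AT2G01850), also known as XTH27, had 11.83 and 11.91 in RECA1-OE, against 11.29 and 11.44 in Col-0, a difference of 0.50 ± 0.13 with a limma adjusted p of 0.075. AT4G30380, also named EXLB2, was dim, with a difference of 0.18 ± 0.98. A further 4 probe sets are each shared by a pair of family genes. The one for EXPA22 and EXP26 had 5.35 and 4.68 in RECA1-OE, against 4.12 and 2.49 in Col-0, a difference of 1.71 ± 0.75, and those for EXPA23 with EXPA25, GH9B14 with GH9B15 and GH9B9 with GH9B10 had overlapping groups. None of these 6 was called, and at an unadjusted p under 0.05 limma gave 1, EXGT-A3. With the dim 40% left out EXGT-A3 was called higher, with a limma adjusted p of 0.046.

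Few other wall genes are named in the annotation, so the surrounding pathway could be read in part only. Of 7 listed genes of xyloglucan synthesis, 1 was measured, CSLC4 (CSLC04 in the annotation), a synthase of the glucan backbone of xyloglucan. It had 10.64 and 10.74 in RECA1-OE, against 10.07 and 10.05 in Col-0, and rose 1.55-fold, by 0.63 ± 0.12 on the log2 scale (limma adjusted p 0.034). Of 12 listed genes of cellulose synthesis, 1 was measured: COB, which guides the deposition of cellulose, differed by -0.17 ± 0.12 and was not called. Of 21 growth regulators, 1 was measured: HAT2, an auxin-induced homeobox gene, differed by 0.44 ± 0.14 and was not called. The listed genes of xyloglucan trimming and of plasma membrane proton pumps had no paired probe set.

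Among 8 cellulose synthase-like (CSL) genes, a family that makes backbones of wall polysaccharides, 1 rose, 0 fell and 7 were not called, with a median log2 difference of -0.10. Over all probe sets 4.55% were called higher. With the dim 40% left out CSLD2 was also called higher, at a log2 difference of 0.61 and a limma adjusted p of 0.042. The riser over all probe sets was CSLC4, and the other 4 CSLC genes, of the same subfamily, lay between -0.53 and -0.01 and were not called. Among 22 trichome birefringence-like (TBL) genes, a family of wall polysaccharide acetylation, 1 fell, 0 rose and 21 were not called, near the 3.31% of all probe sets called lower, with a median of -0.18. The one that fell was TBL36, with a mean of 8.00 ± 0.42 in RECA1-OE and 10.05 ± 0.10 in Col-0 (SD, n = 2 each), a 4.14-fold fall with a limma adjusted p of 0.0099. These 2 lists were chosen by symbol once the annotation had been seen.

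Markers of leaf and root were both bright in all 4 samples, root by a single measured gene, and none was called. Of 4 leaf markers 3 were measured, RCA, LHCB4.1 and PSAN, and their log2 differences lay between -0.20 and -0.07, with group means of 13.89 to 14.39 in RECA1-OE and 14.09 to 14.56 in Col-0. Of 6 root markers 1 was measured, PYK10, with 13.15 and 13.65 in RECA1-OE against 14.13 and 13.53 in Col-0, a difference of -0.43 with a 95% interval of -1.12 to 0.26. The part of root RNA in the values of XTH and expansin genes was not tested.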

How the data were processed

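RNA of 2 RECA1-OE and 2 Col-0 samples was hybridised to 1 Affymetrix array each, per the labels' protocols. Deposited values are log2 signals for which the submitters' processing notes name MAS5; its version, scaling target and genome build are not given in the sources used here. MAS5 gives noisy signals for dim probe sets. The base was read from the values, whose trimmed linear means were 495.1 to 495.6 on the 4 arrays.

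Values under a linear signal of 1 were set to 1, which touched 0 of the 42 genes. RECA1-OE and Col-0 were compared with limma 3.58.1 in R 4.3.3 (lmFit, two-sided, eBayes with its trend on mean signal, Benjamini-Hochberg over all 22746 probe sets, none left out). Residual degrees of freedom were 2, to which moderation added 3.94. The p-values measure only the spread between these samples, which may be technical. An exact permutation test of 2 against 2 arrays cannot go below p = 0.33 and was not used. Data were also simulated for the 22746 probe sets of this comparison, with changes given only to probe sets that were not dim. Of these, 27% of the 100 given a log2 change of 1 and 99% of the 100 given one of 2 were recovered, with 3 false calls. Probe sets of like signal were given a common smoothed spread, which real probe sets do not share. Recovery of dim genes was not simulated.

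The annotation pairs 13513 probe sets with a single gene and 503 with more, and does not list 8730. No coordinates are printed, since no build is given.

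Genes named were every called member, every member called with the dim 40% left out, the 4 brightest and the 3 uncalled ones with the smallest p in each family, and any member next to one of these in the genome, 18 in all; from other lists, called genes and otherwise the lowest p. Other genes named were chosen after their values were seen. Members and lists were chosen with earlier results of these data known.

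Alternatives were leaving out the lowest 40% or 60% of signals, quantile normalization, 16 added to each linear value, the replicate number as a block, no trend, the mean of a gene's probe sets and leaving out each array.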

Additional observations from a re-analysis of the deposited data

How the results depend on the processing

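Quantile normalization and 16 added before log2 changed no call among the 18 named genes. The mean of a gene's probe sets could not move a value, since each of the 42 genes has 1 probe set. Without the dim 40% the XTH calls were 2 higher and 2 lower. Without the lowest 60%, 3 XTH genes were tested: XTH19 was called higher and XTH32 lower. XTH18 was left out of that fit by its signal. Without the mean-variance trend limma called 0 of all probe sets, so expansins lower, XTH higher and GH9 lower were each 0. At an unadjusted p under 0.05 in that limma fit they were 7, 2 and 3. In either direction 17 of the 42 genes reached that p there, beside 4555 of all 22746 probe sets. The replicate numbers did not pair the arrays: deviations of same-numbered arrays correlated at 0.0 over all probe sets and -0.06 without the dim ones. With the replicate number as a block, 1 XTH gene was lower, XTH32 at a limma adjusted p of 0.040, and EXPA15 lost its call at 0.057. With each array left out in turn, expansins called lower ranged from 0 to 4, XTH genes higher from 0 to 2, XTH genes lower from 0 to 1 and GH9 genes lower from 0 to 2. The difference of XTH16 ranged from -0.10 without RECA1-OE replicate 2 to 0.76 without RECA1-OE replicate 1; the cause was not tested. The spread rests on 2 arrays a group, and in the simulation most log2 changes of 1 were missed even in probe sets that were not dim. An uncalled gene is therefore not shown to be unchanged.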
